A study of Mus musculus with 8 samples.

Results

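The nuclear genes of the mitochondrial respiratory chain were followed in NIH 3T3 cells, a mouse fibroblast line, on 8 Illumina bead arrays. A gene was a member where the symbol of its array probe began with Nduf, Uqcr, Cox4 to Cox8 or Atp5, or was Sdha, Sdhb, Sdhc, Sdhd, Cyc1 or Cycs. This gave 87 genes, carried by 110 probes, of the 16590 named genes on the array. Of these, 35 belong by symbol to complex I, 3 to complex II, 9 to complex III, 18 to complex IV and 16 to complex V. No array probe carried the symbol Sdha, so complex II was read without it. Ndufs5-ps, counted with complex I by its symbol, carries the ending of a pseudogene. Cycs, the gene of cytochrome c, stands on its own, and 5 genes (Ndufaf1, Ndufaf3, Ndufaf4, Ndufaf5 and Ndufaf7) code for assembly factors that the prefix takes in but that are not subunits. No values were used to choose them.

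The fibroblasts were kept for a day in 1 of 3 kinds of Claycomb medium, the culture medium of HL-1 cells, a mouse cardiomyocyte line. The groups were cardiomyocyte media, transferred from cultured HL-1 cells (3 arrays), supernatant, the same kind of transferred media after ultracentrifugation (2 arrays), and unused media that had met no cardiomyocytes (3 arrays). NIH 3T3 is an established line and not a heart fibroblast, and the RNA came from culture wells for which the sources do not state separate experiments, so the p-values measure the spread between these arrays, which may be technical. The arrays lay on 2 chips. Every unused media array was on chip 1, together with the arrays numbered 1 of cardiomyocyte media and of supernatant, and the remaining 3 treated arrays made up chip 2.

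The respiratory chain passes electrons from NADH (at complex I) and from succinate (at complex II) to coenzyme Q, then through complex III and cytochrome c to complex IV, which reduces oxygen. Complexes I, III and IV pump protons as they do so, and complex V, the ATP synthase, uses the gradient to make ATP. The subunits are encoded partly in the nucleus and partly in mitochondrial DNA, and complex II is the exception in that all its subunits are nuclear. The genes analysed here are nuclear, and subunits encoded in mitochondrial DNA were not analysed here.

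All 13 fibroblast markers on the array, among them Col1a1, Vim and Sparc, had a detection p-value under 0.05 on all 8 arrays. Their summed normalized signal was 56892 to 68382.5 in cardiomyocyte media, 57640.2 and 61073 in supernatant and 46531 to 54579 in unused media. Of the 13 genes 3 (2 higher and 1 lower), 1 (higher) and 1 (higher) were called in the 3 comparisons described below, where 8.43%, 2.18% and 4.88% of all genes were. The part of these differences in the members' values was not tested. Of 21 cardiomyocyte markers, 2 to 6 had a detection p-value under 0.05 per array. Myl4 and Tnnc1 did so on all 8 arrays and Des on 7, whereas 11 others, among them Myl2, Tnni3, Actc1, Ryr2 and Pln, did so on 0 arrays. The summed normalized signal of the cardiomyocyte markers was 424 to 479 in cardiomyocyte media, 354 and 419 in supernatant and 438 to 678 in unused media, with the highest sum on unused media replicate 3. That array also had the least even beads, with a median bead standard error over the members' probes of 9.49% of the signal, against 3.91% to 5.01% on the other 7 arrays. In RNA from whole cultures, fewer cells of a type and less RNA per cell cannot be told apart.

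Genes were tested if any of their probes reached that detection p-value on 2 arrays or more, and each gene was read from its brightest such probe. This left 78 of the 87 members among 8885 genes. The 9 that were not tested were Atp5k, Cox4i2, Cox6b2, Cox7b2, Cox8b, Cox8c, Ndufs1, Uqcrfs1 and Uqcrq. Uqcrq was detected on 1 unused media array and the other 8 genes on 0 arrays. The tested members were 34 genes of complex I, 3 of complex II, 7 of complex III, 13 of complex IV, 15 of complex V, Cycs and the 5 assembly factors. Ndufs1 and Uqcrfs1 code for core iron-sulfur subunits of complexes I and III, and their probes were not well above background on any array. Among the tested members Ndufab1, Ndufb11 and Ndufaf3 were detected on 0 unused media arrays and Ndufab1 and Cox6a2 on 0 supernatant arrays.

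No member passed the test in any comparison. With limma and a Benjamini-Hochberg adjustment over all 8885 genes, an adjusted p-value under 0.05 was reached by 0 of 78 members in cardiomyocyte media against unused media, where 8.43% of all genes reached it (4.03% higher and 4.4% lower). The counts were 0 of 78 in supernatant against unused media (2.18% of all genes, 0.732% higher and 1.45% lower, a baseline of 194 genes that was 0 without supernatant replicate 1 and 1 without supernatant replicate 2) and 0 of 78 in supernatant against cardiomyocyte media (4.88% of all genes, 1.76% higher and 3.13% lower). At an unadjusted p-value under 0.05 there were 7, 2 and 1 members in these comparisons, against 25.1%, 11.9% and 15.2% of all genes. The lowest adjusted p-values of any member were 0.117, 0.309 and 0.324 (limma). The values 0.117 and 0.309 were those of Ndufb11, also among the 7 and the 2, and its probe was detected on 0 unused media arrays. Without replicate 1 of cardiomyocyte media, the array of that group on chip 1, 3 members were called against unused media, Atp5g3 and Atp5o higher and Atp5h lower, and with limma's trend and robust settings 1 was, Atp5g3. Members whose arrays did not overlap between groups were likewise a smaller share than among all genes in the comparisons with unused media. In cardiomyocyte media against unused media 6 members lay wholly above and 3 wholly below (28.6% of all genes in either direction, 13.2% above and 15.5% below), and in supernatant against unused media 5 lay above and 5 below (31.3% in either direction, 14.9% above and 16.4% below). Ndufb11 was among those above in both comparisons, and Ndufaf3 in supernatant.

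The measured differences were small. The estimate lay within 1.5-fold in 75 of 78 members in cardiomyocyte media against unused media, where 83.8% of all genes did. The counts were 77 in supernatant against unused media (90.6% of all genes) and 76 in supernatant against cardiomyocyte media (88.5% of all genes). The arrays could not hold every member to that size. The 95% interval lay wholly within 1.5-fold for 26, 34 and 22 of the 78 members (33.3%, 43.6% and 28.2%), against 27.7%, 24.8% and 22.6% of all genes, and for the others a change of 1.5-fold was not excluded at this number of arrays.

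**Figure D1:**
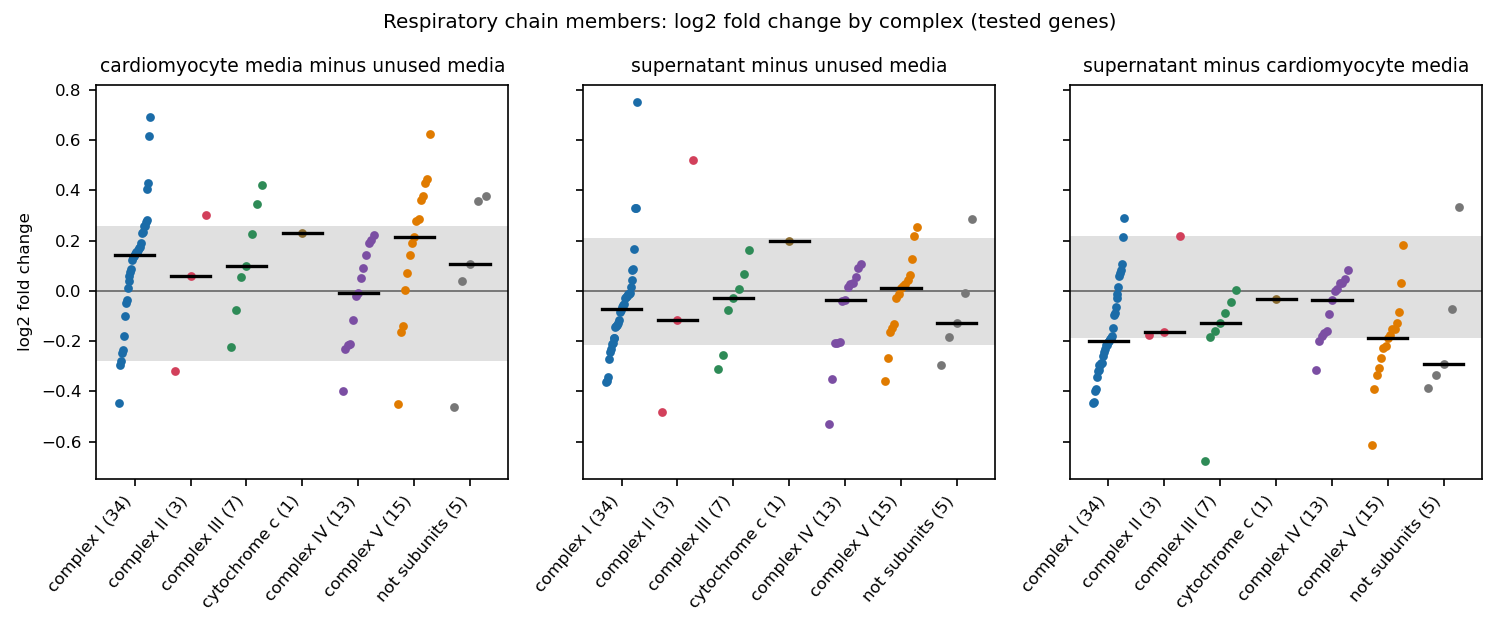
Log2 fold change (vertical axis) of the 78 tested members in each of the 3 comparisons, 1 point per gene, grouped by complex with the number of genes in brackets. Black lines are medians and the grey band spans the middle 50% of all 8885 tested genes; the members' median stands at 0.14, −0.04 and −0.17 from left to right. The highest point of both comparisons with unused media is Ndufb11, whose probe was detected on 0 unused media arrays.

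The members leaned slightly upward in cardiomyocyte media against unused media. Their median log2 fold change was 0.14, against −0.01 over all genes, with 55 of 78 above 0 and 23 below, where 48.9% of all genes lay above and 51.1% below. Of the 55, Ndufab1, Ndufb11 and Ndufaf3 were detected on 0 unused media arrays and passed the detection filter through treated arrays alone. Among genes detected on all 8 arrays the median was 0.11 (all genes −0.02), with 49 of 71 members above 0, where 47.5% of all genes were. Among all tested members the median was 0.14 for complex I, 0.06 for complex II, 0.10 for complex III, −0.01 for complex IV and 0.21 for complex V. In supernatant against unused media the median was −0.04 (all genes close to 0), with 28 of 78 members above 0 and 50 below, where 49.6% of all genes lay above and 50.4% below. Scaling each array by its median instead of quantile normalizing moved the median of all genes by over 0.1. The members then stood at 0.39 and 0.26 in these comparisons and all genes at 0.21 and 0.26, so in supernatant the sign turned and the distance from all genes was near 0.

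The upward lean moved with the chip, which in the treated groups also separates replicate 1 from the later replicates. Chip and replicate cannot be told apart here. In a fit with the media groups as terms, chip 2 exceeded chip 1 by a median of 0.26 on the log2 scale over the members and 0.05 over all genes, and 55 of 78 members lay above 0, where 55.3% of all genes did. With the chip as a block, the members' median in cardiomyocyte media against unused media was −0.05, with 34 of 78 above 0. Within chip 1 alone, where 1 cardiomyocyte media array stood against 3 of unused media, it was −0.05, with 32 above 0. In supernatant against unused media the median was −0.16 with the chip as a block and −0.13 within chip 1, again with 1 treated array. Complex V kept a median above 0 in cardiomyocyte media against unused media, at 0.12 with the chip as a block and 0.10 within chip 1, while complex IV stood at −0.22 and −0.20.

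**Figure D2:**
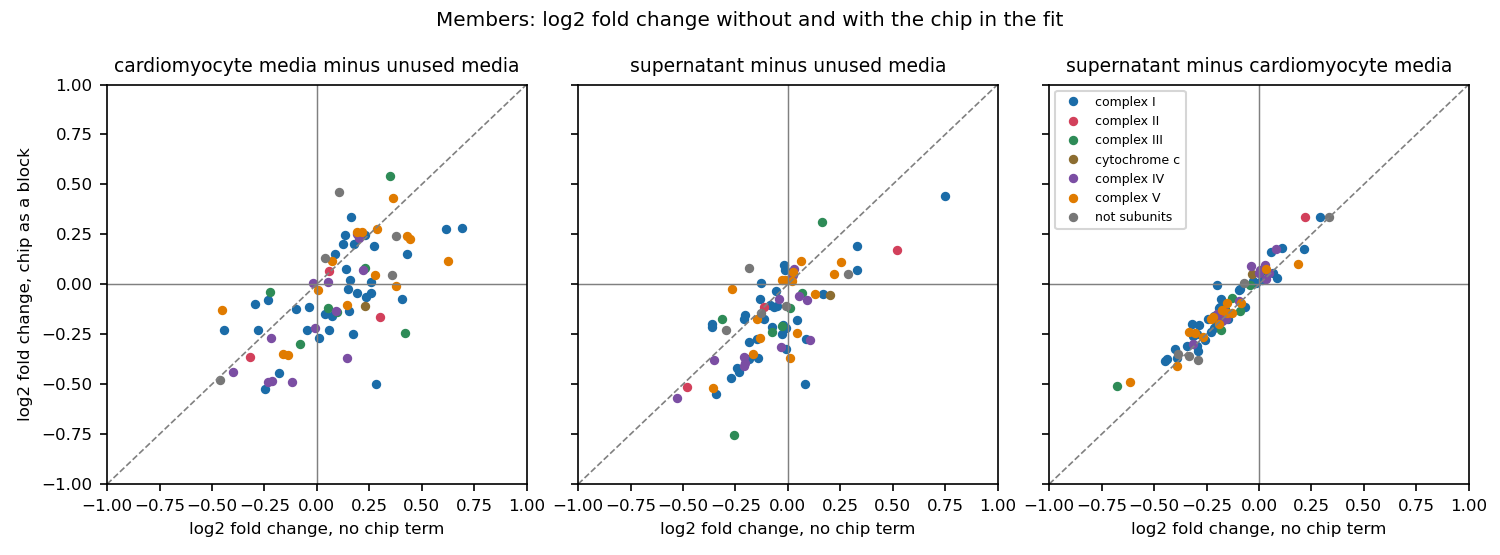
Log2 fold change of each tested member without a chip term (horizontal axis) and with the chip as a block (vertical axis), coloured by complex, for the 3 comparisons; the dashed line marks equal values. In both comparisons with unused media most points fall below the line, and in supernatant against cardiomyocyte media the points stay close to it.

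Array by array, the members' median deviation from the mean of unused media was −0.05, 0.12 and 0.16 in cardiomyocyte media, −0.13 and 0.01 in supernatant and −0.12, 0.03 and 0.11 in unused media. Both cardiomyocyte media arrays of chip 2 lay above every other array, but the array of chip 1 lay within the range of unused media. The pooled SD of this median between arrays of a group was 0.12, about as large as the lean itself. Of the 5 complexes, complex IV spread the most among unused media arrays, from −0.22 on replicate 1 to 0.19 on replicate 3.

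**Figure D3:**
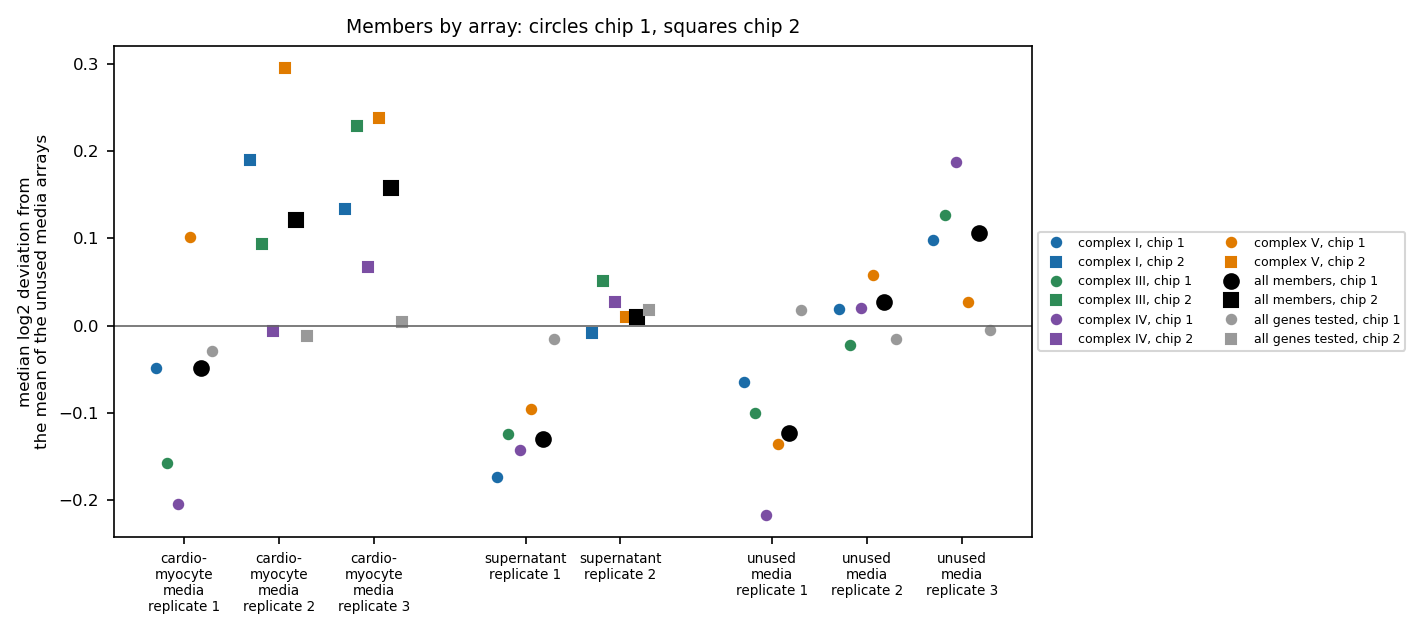
Median log2 deviation (vertical axis) of the members of complexes I, III, IV and V, of all 78 members and of all genes tested from the mean of the 3 unused media arrays, for each array; circles are chip 1 and squares chip 2. All genes stay near 0 on every array, as quantile normalization gives the arrays a common distribution. All members range over −0.13 to 0.16, and their highest values stand on chip 2.

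In supernatant against cardiomyocyte media the members leaned the other way, with a median log2 fold change of −0.17 (all genes 0.02) with 17 of 78 above 0 and 61 below, where 52.4% of all genes lay above and 47.6% below. The lean had the same sign on each chip, though chip 1 sets 1 array against 1, at a median of −0.13 within chip 1 (55 of 78 below 0, all genes 47.4%) and −0.13 within chip 2 (60 of 78, all genes 48%), and was −0.14 with the chip as a block. Each supernatant array lay below every cardiomyocyte media array for 16 of 78 members, where 15.4% of all genes did, and above for 2, where 17% of all genes did (32.4% in either direction). The median was −0.20 for complex I, −0.16 for complex II, −0.13 for complex III, −0.04 for complex IV and −0.19 for complex V. Without supernatant replicate 1 it was −0.04 over all members, with 46 of 78 below 0. The supernatant array that remains there is on chip 2 and the cardiomyocyte media arrays are on both chips, whereas the value within chip 2 also leaves that array out. The other lists of mitochondrial genes given below also had medians below 0 in supernatant against cardiomyocyte media.

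Some of the subunits' promoters hold short sequence words that the choice of genes did not use. Nuclear respiratory factor 1 (NRF1) binds a near-palindromic GC-rich word, ETS factors such as GABP bind a word around GGAA, and YY1 binds a word around ATGG, and all are known for sites in genes of the respiratory chain. RefSeq promoter windows of 300 bases (250 before to 50 after the start, GRCm38.p6) were matched by symbol for 66 subunit genes, and each word was searched on both strands. GCGCATGCG, written for NRF1, was in windows of 8 of 66 genes (12.12%), against 1.95% of all 27025 genes with a window. AAGATGGCG, written for YY1, was in 7 of 66 (10.61%, against 1.64%), and CCGGAAGT, written for ETS factors, was in 5 of 66 (7.58%, against 4.31%). At least 1 of the words was in 19 of 66 genes (28.79%), against 7.48% of all genes. The 27025 genes include genes that are not on the array or were not tested, and shares over the tested genes alone were not taken. A match is a description of the letters and not a measured site.

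The stretches that hold the YY1 word are shown first because most of them share a place. The word ran in the direction of the gene in all 7 windows (69.6% of all windows with the word), and it did so after the start in 6 of 7 (85.7%, against 45.3% of all windows with the word), at 22 to 35 bases. Atp5j, where it lay 88 bases before the start, was the exception. The word holds ATG, the letters of a start codon, and whether it marks the start of translation in these genes was not tested. Stretches of 30 bases around it are given 5′ to 3′ along the gene, with the word in capitals.

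Atp5j, chr16:84835046-84835075, minus strand: aaagtgtaggaAAGATGGCGgagtcttagc
Atp5j2, chr5:145191500-145191529, minus strand: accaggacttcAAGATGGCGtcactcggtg
Ndufa9, chr6:126849097-126849126, minus strand: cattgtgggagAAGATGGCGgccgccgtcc
Ndufc1, chr3:51408915-51408944, minus strand: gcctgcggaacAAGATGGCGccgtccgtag
Ndufs4, chr13:114388045-114388074, minus strand: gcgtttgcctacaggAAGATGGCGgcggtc
Ndufs6, chr13:73328433-73328462, minus strand: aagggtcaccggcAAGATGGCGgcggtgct
Ndufs7, chr10:80249462-80249491, plus strand: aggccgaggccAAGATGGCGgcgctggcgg

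The NRF1 word was spread over the window and is shown because genes of complexes I, III, IV and V and Cycs hold it. It lay 241 bases before the start in Atp5l, 162 in Cox6a1, 61 in Cycs, 50 in Atp5k, 42 in Atp5g2, 9 in Ndufa8 and 5 in Uqcr11, and 30 bases after it in Uqcrc1. Since the word overlaps its own reverse complement, a longer run of capitals is the word read on both strands, and a run that begins otherwise is the reverse complement.

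Atp5g2, chr15:102671070-102671099, minus strand: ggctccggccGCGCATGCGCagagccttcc
Atp5k, chr5:108434430-108434459, minus strand: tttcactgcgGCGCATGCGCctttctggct
Atp5l, chr9:44920963-44920992, minus strand: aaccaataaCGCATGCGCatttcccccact
Cox6a1, chr5:115349101-115349130, minus strand: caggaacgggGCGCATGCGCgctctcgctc
Cycs, chr6:50566612-50566641, minus strand: ccatgctagctCGCATGCGCgcgcacaaac
Ndufa8, chr2:36049329-36049358, minus strand: gtcgctggagaCGCATGCGCagatggtacc
Uqcr11, chr10:80406808-80406837, minus strand: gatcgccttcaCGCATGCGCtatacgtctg
Uqcrc1, chr9:108936668-108936697, plus strand: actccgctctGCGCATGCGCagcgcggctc

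The ETS word lay between 66 bases before and 31 bases after the start, most often on the opposite strand of the gene, and Uqcr11, a small complex III subunit, was the gene that held it together with the NRF1 word. Cox8a held it at 2 places. The capitals mark the word or, in every gene but Uqcr11, its reverse complement.

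Atp5h, chr11:115419940-115419969, minus strand: ccaaggagagaACTTCCGGcaactctcttc
Cox8a, chr19:7217567-7217596, minus strand: tcagcgccggaACTTCCGGctggttcggcc
Cox8a, chr19:7217604-7217633, minus strand: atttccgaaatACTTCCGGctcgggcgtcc
Ndufs3, chr2:90904703-90904732, minus strand: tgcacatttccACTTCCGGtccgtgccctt
Uqcr11, chr10:80406869-80406898, minus strand: ttctctcctccCCGGAAGTagatgtcaatg
Uqcrh, chr4:116075063-116075092, minus strand: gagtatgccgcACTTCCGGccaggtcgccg

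The genes with and without a word had near-equal medians between media. Of the 19, 18 were tested, and their median log2 fold change was 0.14 in cardiomyocyte media against unused media, −0.04 in supernatant against unused media and −0.16 in supernatant against cardiomyocyte media. The 43 tested subunits whose windows held no word had medians of 0.14, −0.03 and −0.16.

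Complex I had 34 tested genes, some of them read from dim probes. Ndufb11, an X-linked accessory subunit of the membrane arm, had normalized signals (background-corrected array units) of 18.2, 23.9 and 35.1 in cardiomyocyte media, 15.4 and 42.5 in supernatant, and 8.92, 13.7 and 6.38 in unused media. All treated arrays lay above all unused media arrays, but the probe was detected on 2, 1 and 0 arrays of these groups, so unused media was not well above background and no fold change is given. The mean over all arrays of a group, detected or not, stood 1.15-fold above the lowest signal that counted as detected in cardiomyocyte media and 1.19-fold above it in supernatant, and replicate 1 of each group lay under that level. The adjusted p-values against unused media were 0.117 and 0.309 (limma).

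Ndufa2, an accessory subunit of the matrix arm, had 3143, 4404 and 4531 in cardiomyocyte media, 2711 and 3901 in supernatant and 2880.1, 3235 and 1852 in unused media. The groups overlapped, because replicate 1 of cardiomyocyte media lay below unused media replicate 2. The log2 fold change of cardiomyocyte media over unused media was 0.62 ± 0.25 (SE, adjusted p = 0.155, limma) and 0.28 with the chip as a block. Ndufa10, another accessory subunit of complex I, went the opposite way, with 3553, 3101 and 3195 in cardiomyocyte media, 4175 and 2892 in supernatant and 4433, 4735 and 4242 in unused media. Here no treated array reached the lowest unused media array, and the log2 fold change was −0.44 ± 0.18 for cardiomyocyte media (adjusted p = 0.157) and −0.36 ± 0.20 for supernatant (adjusted p = 0.521). With the chip as a block these were −0.23 and −0.20.

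Ndufb8, a membrane arm accessory subunit, had the lowest p-value in supernatant against cardiomyocyte media. Its signals were 3704 and 4785 in supernatant and 4814, 6213 and 6324 in cardiomyocyte media (and 4990.4, 4622 and 4772 in unused media). Supernatant lay below cardiomyocyte media without overlap by a narrow gap, and the log2 fold change was −0.45 ± 0.20 (adjusted p = 0.324, limma). Ndufb7, of the same arm, stood at 186 and 189.8 in supernatant and 229, 253 and 273 in cardiomyocyte media, again without overlap (log2 fold change −0.39 ± 0.20, adjusted p = 0.419). Ndufv1, the core subunit that binds NADH and FMN, had 4103 and 3643 in supernatant and 5074, 4553 and 5328 in unused media, with a log2 fold change of −0.36 ± 0.20 (adjusted p = 0.521) and −0.21 with the chip as a block.

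The chip difference passed in 3 of 78 members, a share no larger than the 4.19% of all genes that passed in either direction. Ndufb4, Uqcrb and Ndufb9, all small accessory subunits, were higher on chip 2 than on chip 1 with the media as terms (adjusted p = 0.0275, 0.0360 and 0.0454, limma). The log2 difference was 1.16 for Ndufb4 and 0.72 for Ndufb9. Ndufb9 had 205 and 177 on the chip 2 arrays of cardiomyocyte media and 120.0 on its chip 1 array, and 179 and 90.8 on those of supernatant, with 110.0, 117 and 133 in unused media. The chip 1 arrays of all groups thus lay close together, and the log2 fold change of cardiomyocyte media over unused media was 0.40 without and −0.07 with the chip as a block. Ndufb4 was near background, at 9.3 to 46 over the 8 arrays.

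**Figure D4:**
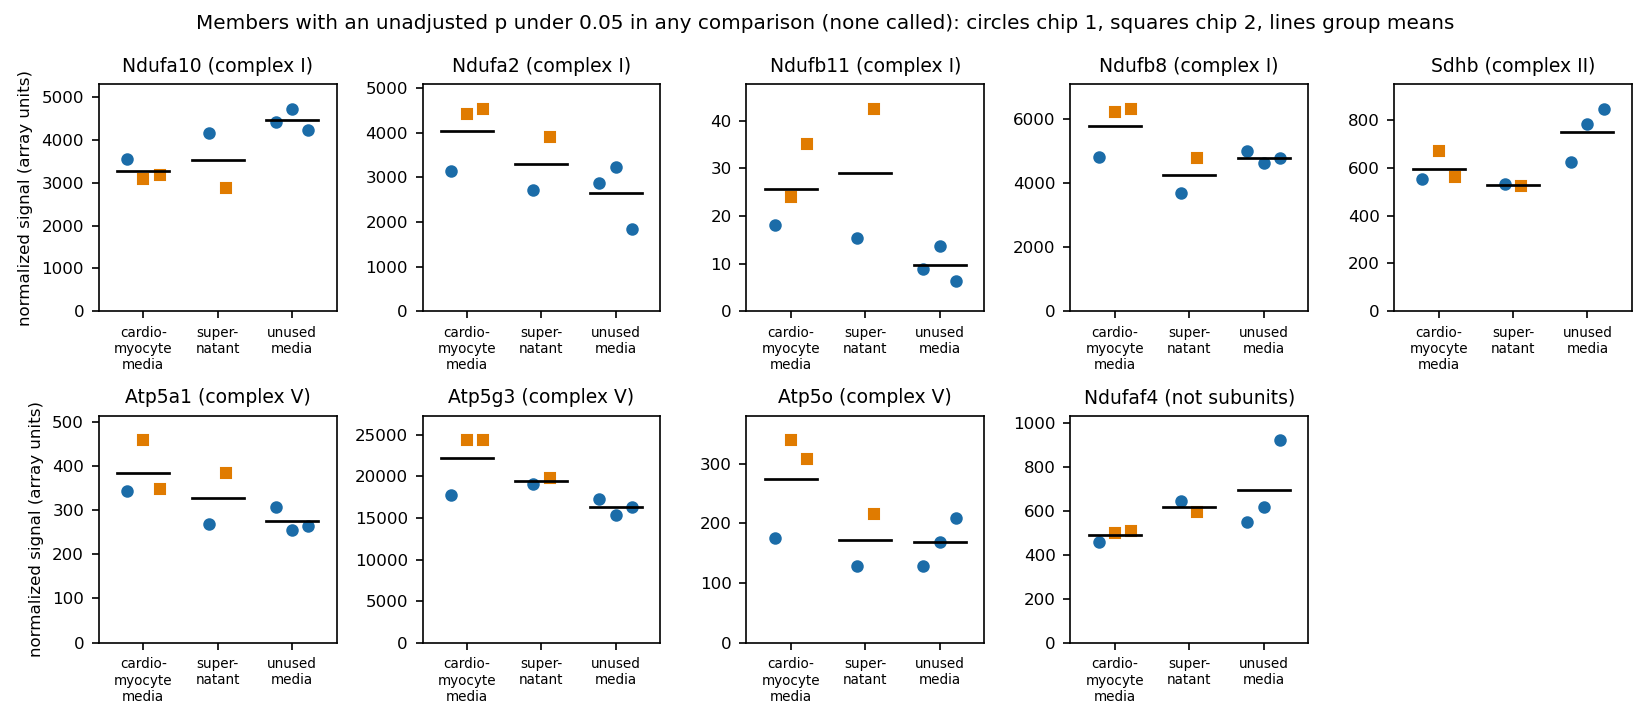
Normalized signal (vertical axis, array units, 1 panel per gene with its own scale from 0) of the 9 members with an unadjusted p-value under 0.05 in any comparison, by medium; circles are chip 1, squares chip 2 and lines the group means. In 8 of the 9 genes, all but Ndufa10, the chip 1 array of cardiomyocyte media lies below both of its chip 2 arrays.

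In complex II, Sdhb, the iron-sulfur subunit, had the lowest p-value. Its signals were 554, 669 and 564 in cardiomyocyte media, 534 and 523 in supernatant and 622, 781 and 847 in unused media. Supernatant lay below both other groups, and the log2 fold change against unused media was −0.48 ± 0.20 (adjusted p = 0.366, limma), and −0.52 with the chip as a block. Another probe of Sdhb gave −0.22, and a dim probe detected on 5 arrays gave −0.36. Of the membrane anchors, Sdhc had 2906, 2928 and 2515 in cardiomyocyte media, 2357 and 2558 in supernatant and 3090.3, 2420.4 and 2522 in unused media, with all groups overlapping. Sdhd was dim and uneven, at 24.7, 93.7 and 51.2 in cardiomyocyte media, 56.7 and 67.5 in supernatant and 39.3, 44.8 and 31.6 in unused media. Supernatant lay above unused media in Sdhd, at a log2 fold change of 0.52 ± 0.33 (adjusted p = 0.582, limma) and 0.17 with the chip as a block. The 3 genes read for this complex, which leave out Sdha, thus did not share a direction.

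In complex III the widest difference was in Uqcrb, the small subunit that lies at the ubiquinone site. Its signals were 406 and 833 in supernatant, 590.4, 1488 and 945 in cardiomyocyte media and 651, 686 and 765 in unused media. On each chip supernatant lay below cardiomyocyte media, but the arrays of chip 2 lay well above those of chip 1 in both groups. The log2 fold change of supernatant over cardiomyocyte media was −0.68 ± 0.36 (adjusted p = 0.446, limma) and −0.51 with the chip as a block. Cyc1, the haem-bearing cytochrome c1 that hands electrons to cytochrome c, had 1517, 1104 and 1328 in cardiomyocyte media, 1254 and 1052 in supernatant and 1124, 1312 and 725 in unused media. Unused media replicate 3 stood below all other arrays, and the log2 fold change of cardiomyocyte media over unused media was 0.35 ± 0.23 (adjusted p = 0.372) and 0.54 with the chip as a block (adjusted p = 0.292). The core proteins Uqcrc1 and Uqcrc2 gave 0.23 and −0.22 in the same comparison, and 0.08 and −0.04 with the chip as a block. Cytochrome c itself was poorly measured, since the better of 2 Cycs probes was detected on 4 of 8 arrays, with signals of 17.7 to 35.8.

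Complex IV is the complex with tissue isoforms, and the array carried both forms of several subunits. The forms that most tissues use, Cox4i1, Cox5a, Cox5b, Cox6a1, Cox6b1, Cox6c, Cox7a2, Cox7b and Cox8a, were detected on all 8 arrays, apart from Cox7b on 7. Cox4i1, the regulatory subunit, differed little between media, at 7111, 6266 and 7577 in cardiomyocyte media, 6082 and 7000.2 in supernatant and 6647, 6759.7 and 6746 in unused media. Its log2 fold change was 0.05 (95% interval −0.30 to 0.40) in cardiomyocyte media and −0.04 (−0.44 to 0.35) in supernatant, both against unused media. Over the 13 tested genes of the complex the estimates ran from −0.40 to 0.22 in cardiomyocyte media and, leaving out Cox6a2, from −0.35 to 0.11 in supernatant, and the lowest in each was Cox7a1, a muscle isoform near background.

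Cox6b1, the subunit that links the monomers of the complex, had 5381, 6720.4 and 7739.7 in cardiomyocyte media, 5934 and 7515 in supernatant and 7616, 7321 and 8144 in unused media. The groups overlapped through the chip 2 arrays, and the log2 fold change of cardiomyocyte media over unused media was −0.23 ± 0.19 (adjusted p = 0.463, limma) and −0.49 with the chip as a block (adjusted p = 0.161). Another probe of Cox6b1, detected on all 8 arrays, did not overlap, with 3968, 3846 and 4071 in cardiomyocyte media, 3895 and 4627 in supernatant and 5122, 4990.4 and 5959 in unused media. Its log2 fold change was −0.43 ± 0.17 in cardiomyocyte media (adjusted p = 0.154, limma over all probes) and −0.33 ± 0.19 in supernatant (adjusted p = 0.551). Cox6c and Cox7a2, other small nuclear subunits, likewise stood at −0.12 and −0.21 without and at −0.49 and −0.48 with the block. Cox5a, Cox5b, Cox6a1 and Cox8a lay between 0.09 and 0.22 in the same comparison and between −0.13 and 0.25 with the block, with overlapping groups. Cox7c, a small membrane subunit, had 4145 and 5243 in supernatant and 4670, 5873 and 5597 in cardiomyocyte media, at a log2 fold change of −0.20 ± 0.22 (adjusted p = 0.784).

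The forms restricted to heart and skeletal muscle or to testis stayed at or near background. Cox4i2, found mainly in lung, Cox8b, of rodent heart and muscle, and Cox6b2, Cox7b2 and Cox8c, known from testis, were detected on 0 of 8 arrays. Cox6a2 and Cox7a1, the heart and skeletal muscle forms, were detected on 3 and 8 arrays, but at 1.08 to 1.55 and 1.27 to 1.65 times the array's background. Cox7a1 had 22.7, 20.7 and 25.9 in cardiomyocyte media, 22.8 and 25.9 in supernatant and 30.8, 20.3 and 64.2 in unused media. Cox6a2 had 18, 15.6 and 23.0 in cardiomyocyte media, 10.9 and 13.1 in supernatant and 10.1, 19.6 and 54.7 in unused media. In both, unused media replicate 3 stood alone above the rest, which was also the array with the highest sum of cardiomyocyte markers and the least even beads. The part of these in the values was not tested. The log2 fold change of Cox7a1 in cardiomyocyte media was −0.40 ± 0.25 (adjusted p = 0.354) against unused media. For Cox6a2, detected on 0 supernatant arrays, no fold change is given, and the mean of unused media, where 2 of 3 arrays were detected, stood 1.20-fold above the lowest signal that counted as detected (adjusted p = 0.578, limma).

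**Figure D5:**
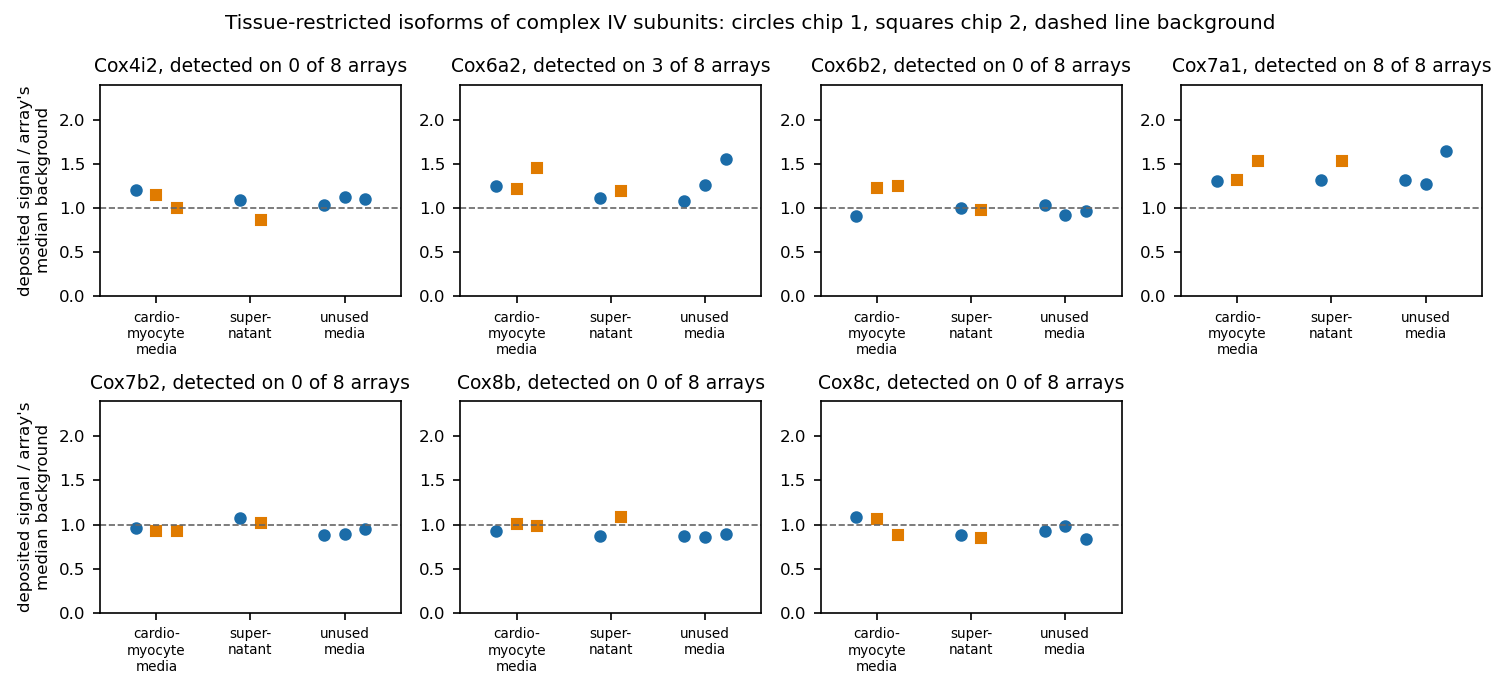
Deposited signal divided by the array's median background (vertical axis, ratio; dashed line at 1) for 7 tissue-restricted isoforms of complex IV subunits, 1 panel per gene, by medium; circles are chip 1 and squares chip 2. Of the genes shown, Cox7a1 was the one detected on all 8 arrays, and every point lies at or below 1.65 times background.

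Ndufa4 carries a complex I symbol, but its protein is counted with complex IV today. It had 7577, 10658 and 9597 in cardiomyocyte media, 6889 and 9467 in supernatant and 6943, 8985 and 8985 in unused media, with log2 fold changes of 0.16 in cardiomyocyte media and −0.03 in supernatant against unused media, and −0.13 and −0.25 with the chip as a block. Cox7a2l, which helps complexes III and IV assemble into supercomplexes, was nearly level, at log2 fold changes of −0.02 in cardiomyocyte media and 0.01 in supernatant over unused media.

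Complex V had the highest share of genes above 0 of the complexes in cardiomyocyte media against unused media. There 12 of 15 tested genes lay above 0, where 48.9% of all genes did. With the chip as a block, and within chip 1, 9 of 15 did. In supernatant against cardiomyocyte media 13 of 15 lay below 0, where 47.6% of all genes did. Complex III (6 of 7) and complex I (27 of 34) also lay mostly below 0 there. Each cardiomyocyte media array lay above every unused media array in 4 of 15 genes, where 13.2% of all genes did. These were Atp5g3, Atp5a1, Atp5g1 and Atp5pb. Atp5g1, Atp5g2 and Atp5g3 code for the same mature c subunit of the proton-turning ring. Atp5g3 had 17804, 24349 and 24349 in cardiomyocyte media, 19084 and 19802 in supernatant and 17242, 15389 and 16342 in unused media, so that every treated array lay above every unused media array. Its log2 fold change was 0.43 ± 0.18 in cardiomyocyte media (adjusted p = 0.163) and 0.25 ± 0.20 in supernatant (adjusted p = 0.653, limma), and 0.24 and 0.11 with the chip as a block.

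Atp5g1 had 4724, 4638 and 5013 in cardiomyocyte media, 4004 and 3956 in supernatant and 3927, 4337 and 3558 in unused media. Its difference between cardiomyocyte media and unused media was the same without and with the chip as a block, at 0.28 (adjusted p = 0.287 and 0.460). Atp5pb, subunit b of the stator stalk, likewise stood at 0.36 and 0.43 (adjusted p = 0.271 and 0.346), with 1638, 1495 and 1418 in cardiomyocyte media, 1156 and 1146 in supernatant and 890.4, 1320.0 and 1379.8 in unused media. In both genes the supernatant arrays lay below the cardiomyocyte media arrays without overlap. Atp5g2 overlapped between all groups, at a log2 fold change of 0.28 in cardiomyocyte media over unused media and 0.05 with the chip as a block.

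Atp5a1, the alpha subunit of the catalytic head, had 344, 458 and 347 in cardiomyocyte media, 269 and 384 in supernatant and 307, 254 and 264 in unused media, with a log2 fold change of 0.45 ± 0.19 for cardiomyocyte media over unused media (adjusted p = 0.182). Atp5b, the beta subunit beside it, differed by 0.07 (95% interval −0.26 to 0.41) in the same comparison. The subunits of the head thus had unlike estimates, with overlapping intervals, since that of Atp5a1 ran from 0.02 to 0.87, and with the chip as a block they stood at 0.23 for Atp5a1 and 0.12 for Atp5b. Atp5o, the stalk protein that joins the head to the stator, had 176, 339 and 308 in cardiomyocyte media, 129 and 216 in supernatant and 128, 169.7 and 209.7 in unused media. The groups overlapped, and its log2 fold change of 0.62 ± 0.28 in cardiomyocyte media over unused media (adjusted p = 0.189) was 0.12 with the chip as a block. Atp5h, another stalk subunit, had 1776, 1157 and 1189 in cardiomyocyte media, 1728 and 1359 in supernatant and 1571, 1848 and 2169.8 in unused media, where the chip 2 arrays were the low ones. Its log2 fold change of −0.45 ± 0.21 (adjusted p = 0.218) was −0.13 with the chip as a block. Atp5mpl, a small membrane subunit, had 5106 and 5981 in supernatant and 7297, 6746 and 7214 in unused media, without overlap, at −0.36 ± 0.19 (adjusted p = 0.510).

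The 5 assembly factors for complex I that share the prefix were not called either. Ndufaf4 had 459, 501 and 509.7 in cardiomyocyte media, 644 and 597 in supernatant and 549.9, 616 and 923 in unused media. Cardiomyocyte media lay below both other groups, at a log2 fold change of −0.46 ± 0.20 against unused media (adjusted p = 0.185, limma) and −0.48 with the chip as a block. Ndufaf1 went the other way, at 0.38 ± 0.18 (adjusted p = 0.224) and 0.24 with the chip as a block, with 264, 295 and 248 in cardiomyocyte media, 172 and 237 in supernatant and 235, 189 and 189 in unused media. Ndufaf5 and Ndufaf7 gave 0.04 and 0.11 without and 0.13 and 0.46 with the block, and Ndufaf3 was not detected on any unused media array. Another probe of Ndufaf5, dim and detected on 5 arrays, gave 0.59 ± 0.23 against unused media (adjusted p = 0.164, limma over all probes). In supernatant against cardiomyocyte media it gave −0.67 ± 0.26 (adjusted p = 0.274).

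Where a gene had several tested probes, none of them was called, which was the case for all 13 such members. The probes did not always share a sign. For Ndufs4, a matrix arm subunit with 4 probes detected on all arrays, the log2 fold changes of cardiomyocyte media over unused media were 0.07, −0.15, −0.01 and −0.13, and those of supernatant over unused media were −0.24, −0.26, −0.04 and −0.32. For Ndufv3, with 3 tested probes, they were −0.10, 0.43 and −0.36 in cardiomyocyte media over unused media, the 0.43 coming from a dim probe detected on 7 arrays.

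Other nuclear genes of the organelle were read beside the members. Of the assembly factors of the respiratory chain on the array, 38 were tested, with 16 enzymes of the TCA cycle, 20 regulators of mitochondrial gene expression, 11 carriers and porins and 72 mitochondrial ribosomal proteins. In each list and each comparison 0 genes were called (limma). Among all genes, 8.43% were called in cardiomyocyte media against unused media, 2.18% in supernatant against unused media and 4.88% in supernatant against cardiomyocyte media. In cardiomyocyte media against unused media, the counts at an unadjusted p-value under 0.05 were 8, 2, 5, 1 and 4. Of all genes, 25.1% passed that level there. Whether the lists differ from these shares was not tested. The medians of the lists in cardiomyocyte media against unused media were −0.02, 0.02, −0.05, −0.09 and −0.05, beside 0.14 for the members and −0.01 for all genes. In supernatant against unused media they were −0.18, −0.11, −0.12, −0.14 and −0.11. In supernatant against cardiomyocyte media they were −0.09, −0.09, −0.01, −0.16 and −0.08, beside −0.17 for the members and 0.02 for all genes. The assembly factors include the 5 Ndufaf members.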

How the data were processed

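Total RNA of 8 NIH 3T3 cultures was labelled and hybridised to Illumina MouseRef-8 arrays. Per the file headers and the submitters' processing notes, the authors read the arrays in BeadStudio 3.3 and deposited probe intensity before normalization with a detection p-value, the number of beads and the standard error over beads, and, in the value table, intensity normalized by cubic spline. The paper's text and the labels differ on the RNA kit and on the record that holds these arrays, and the labels were followed. Probes were named through the platform's gene table (23978 of 25697 probes have a name), and 8 symbols were updated through the RefSeq gene table.

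The intensity before normalization was corrected by normexp with the background inferred from the detection p-values (offset 16), quantile normalized and put on the log2 scale in limma 3.58.1 (R 4.3.3). Signals printed are the normalized values less the offset, so a fold change understates the change of dim genes. Each gene was tested with lmFit and eBayes over all 8 arrays with 1 term per group, two-sided, and p-values were adjusted by Benjamini-Hochberg over the 8885 tested genes, with a call at an adjusted p-value under 0.05. The fit was tested on simulated data with known changes. Chip 1 arrays had a background of 88.9 to 93.1 and those of chip 2 one of 47.0 to 48.1, with 10545 to 11758 probes detected, and the number of arrays limits the precision.

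The genes named were any called member, the 2 tested members with the smallest p in each complex and comparison, isoform and paralog families, genes whose probes differ in call and the Ndufaf factors. Ndufa10, Ndufb4, Ndufb9, Ndufs4, Ndufv3, Atp5h, Atp5b and the genes of the promoter windows were added after their values were seen. The members, the lists and the tests were chosen with earlier results of these data known. Alternatives covered background, normalization, probe filter and choice, variance model, chip, pairing and each array left out.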

Additional observations from a re-analysis of the deposited data

How the results depend on the processing

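Most settings left the members uncalled. The count of called members in cardiomyocyte media against unused media was 1 with limma's trend and robust settings (Atp5g3) and ran from 0 to 3 as each array was left out. The count of 3 (Atp5g3 and Atp5o higher, Atp5h lower) came without cardiomyocyte media replicate 1, so that no chip held both groups, and 1448 genes were then called in all, against 749 with every array. The count was 0 in the other comparisons under every alternative run. The members' median in cardiomyocyte media against unused media was 0.39 with arrays scaled to a common median, where the median of all genes was 0.21, −0.046 with the chip as a block and −0.049 within chip 1, and ran from 0.05 to 0.17 as each array was left out. In supernatant against unused media it was 0.26 with arrays scaled to a common median (all genes 0.26) and −0.16 with the chip as a block, and ran from −0.13 to 0.01. In supernatant against cardiomyocyte media it ran from −0.24 without supernatant replicate 2 to −0.041 without supernatant replicate 1. Over all genes the calls ran from 169 within chip 1 to the 1448 above in cardiomyocyte media against unused media, from 0 (limma) within chip 1, where 6.90% of genes had an unadjusted p-value under 0.05, to 243 without cardiomyocyte media replicate 1 in supernatant against unused media, and from 35 within chip 1 to 610 with the chip as a block in supernatant against cardiomyocyte media. In supernatant against unused media the 194 calls were 0 without supernatant replicate 1 (10.8% of genes at an unadjusted p-value under 0.05) and 1 without supernatant replicate 2. Scaling to a common median changed their split to 369 higher and 111 lower, against 358 and 391, in cardiomyocyte media and to 53 higher and 10 lower, against 65 and 129, in supernatant, both over unused media.

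The labels give the groups the same replicate numbers. Same-numbered cardiomyocyte media and supernatant arrays deviated together (r = 0.71 and 0.49, the pairs also sharing a chip). Same-numbered arrays of treated and unused media did not (r = −0.18 to −0.09). Every unused media array was on chip 1, and arrays with unlike numbers were not compared here. Whether the numbers pair the samples therefore cannot be told from these values. With the replicate block 0, 0 and 0 members were called in the 3 comparisons, and 729, 97 and 341 genes in all, against 749, 194 and 434 without it. Of 2247 values under the alternatives for the genes that the naming rule gives, which leaves out Atp5h and the others added later, 2085 kept their direction and side of the threshold, 3 passed the threshold, 0 reversed as calls and 159 changed sign with neither value called. Dim probes (Ndufb11, Ndufb4, Cycs, Cox6a2, Cox7a1 and Ndufaf3) carry little above background, and 2 supernatant arrays leave wide intervals.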
